A study of Mus musculus with 20 samples.

Results

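The ventricle under the estrogen receptor α agonist 16α-LE2 was set against the ventricle under estradiol, gene by gene. The 10 samples compared, 5 of each treatment, are those whose titles name alpha and E2, out of 20 samples in the series. The series measured total RNA of heart ventricle on Affymetrix arrays, 1 array for each sample, and has estrogen receptor α and glucose uptake as its theme. All 20 samples came from female C57BL/6 mice that had been ovariectomized at 8 weeks of age and given Alzet minipumps, so every group lacks the ovaries' own estrogen. For 4 weeks the pumps delivered either 16α-LE2 or estradiol, both as cyclodextrinated estrogens, or the placebo solution. A further group of 5 has titles that say beta and a treatment label of control solution, and is called beta-titled here. Placebo and beta-titled samples took no part in the difference itself, but all 20 arrays shared the estimate of the spread. The treatments were matched in duration, while the labels give no dose for either agent, so a difference between them cannot be told apart from a difference in effective dose. No label says that each sample is a different animal, so the p-values measure only the spread between samples, which may be partly technical.

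Estradiol, the main ovarian estrogen, acts on both nuclear receptors, α and β, which bind DNA at estrogen response elements or reach genes through other factors such as AP-1. The labels describe 16α-LE2 as an agonist of the α receptor. In the heart, receptors are found in cardiomyocytes, fibroblasts and vascular cells. Fibroblasts make most of the interstitial matrix, a network of fibrillar collagens on which proteoglycans and matricellular proteins such as SPARC sit. Myh7 encodes the slow β myosin heavy chain, which in the adult mouse ventricle is a minor form beside the α chain and is known to be sensitive to load and to hormones.

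The deposited values are read as log2 signal, so a difference of 1 is 2-fold, and every difference below is 16α-LE2 minus estradiol. Each gene had 1 probe set, the one with the highest mean over all arrays, and 12082 of 18193 genes lay above the expression filter. A typical 95% confidence interval reached 0.209 log2 units to either side of the difference (median over genes) with 5 arrays per group. It reached 0.184 without estradiol replicate 33. The array of estradiol replicate 33 stood apart. Its Spearman correlations with the other arrays were 0.882 to 0.923, against 0.958 to 0.992 among the other 19. It was the highest or the lowest of the 10 arrays for 66.7% of genes, against 5.18% to 23.0% for the rest. Results are therefore given with and without it. Markers of heart muscle were looked at beside the tissue label. The 11 genes listed for ventricular cardiomyocytes averaged 13.85 to 13.99 with 16α-LE2 and 13.80 to 14.13 with estradiol. These levels lay near the top of the array's range of 5.07 to 15.31. They show heart muscle and do not settle the chamber. Atrial markers averaged 8.40 to 9.86 and 8.96 to 10.50, and atrial signal varied within both groups. Among them, Myl7, the atrial myosin light chain, ran from 6.96 to 10.25 and from 8.58 to 11.40.

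The differences that passed the test were both on the lower side. With 16α-LE2, 2 genes fell below their level with estradiol at an adjusted p under 0.05 over all genes. These were Nrep, a small intracellular protein found in fibroblasts and neurons that has been linked to TGF-β signalling, and Col14a1, a collagen that binds the surface of collagen fibrils. Nrep measured 8.11, 7.80, 7.79, 7.62 and 7.52 in 16α-LE2 replicates 29, 30, 32, 33 and 34, and 9.26, 8.92, 8.52, 8.90 and 8.63 in estradiol replicates 29, 30, 33, 34 and 35. Every 16α-LE2 value lay below every estradiol value. The difference was −1.08 ± 0.18 (SE, n = 5 against 5), or 2.11-fold lower, with a limma adjusted p of 0.0270. Col14a1 measured 7.04, 7.01, 6.94, 6.88 and 6.86 with 16α-LE2 and 7.32, 7.46, 7.49, 7.66 and 7.97 with estradiol, in the same order. Again the groups did not overlap, and the difference was −0.64 ± 0.11 (SE; 1.55-fold lower, limma adjusted p = 0.0270). The 16α-LE2 mean of Col14a1, 6.94, lay near the filter level of 6.93, and signal at this level is not separated from background here. Both genes passed without estradiol replicate 33 as well, at −1.16 and −0.66 (limma adjusted p = 0.0489 for both). The call of Col14a1 was lost, and that of Nrep kept, in a fit of only the 10 arrays compared (limma adjusted p = 0.0730 for Col14a1 and 0.0135 for Nrep), in that fit without estradiol replicate 33 (0.0734 and 0.0179) and with the replicate number as a block (0.128 and 0.00620, or 0.0856 and 0.00381 without that array). Both calls were lost when the probe sets of a gene were averaged (limma adjusted p = 0.0899 for both). A second probe set of Nrep gave −0.71, and the other probe sets of Col14a1 gave −0.26 and 0.07, the last of them below the filter.

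Placebo levels of these genes were near those of estradiol: Nrep averaged 9.01 ± 0.43 (SD, n = 5) with placebo and 8.98 ± 0.32 in the beta-titled group, and Col14a1 averaged 7.52 ± 0.25 and 7.52 ± 0.07. The 2 calls are 0.0166% of all genes tested, with all arrays and again 0.0166% without estradiol replicate 33. Single arrays decided the count. Dropping 16α-LE2 replicate 30, 32, 33 or 34 left 0 calls, and so did dropping estradiol replicate 30, 34 or 35. Dropping estradiol replicate 29 left 1, and dropping 16α-LE2 replicate 29 gave 11. Arrays outside the comparison act on it through the shared spread: dropping placebo replicate 33 gave 8 calls, placebo replicate 36 gave 6, and each of placebo replicate 34 and beta-titled replicates 31 and 35 gave 4. The count without estradiol replicate 33 also rested on single arrays, at 0 when 16α-LE2 replicate 30, 32, 33 or 34, estradiol replicate 30, 34 or 35 or beta-titled replicate 35 or 36 was dropped too, 13 without 16α-LE2 replicate 29 and 9 without placebo replicate 33. A single call was left after dropping beta-titled replicate 32 or 33, or placebo replicate 31, 32 or 34. Dropping estradiol replicate 29 as well left it at 3.

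**Figure D1:**
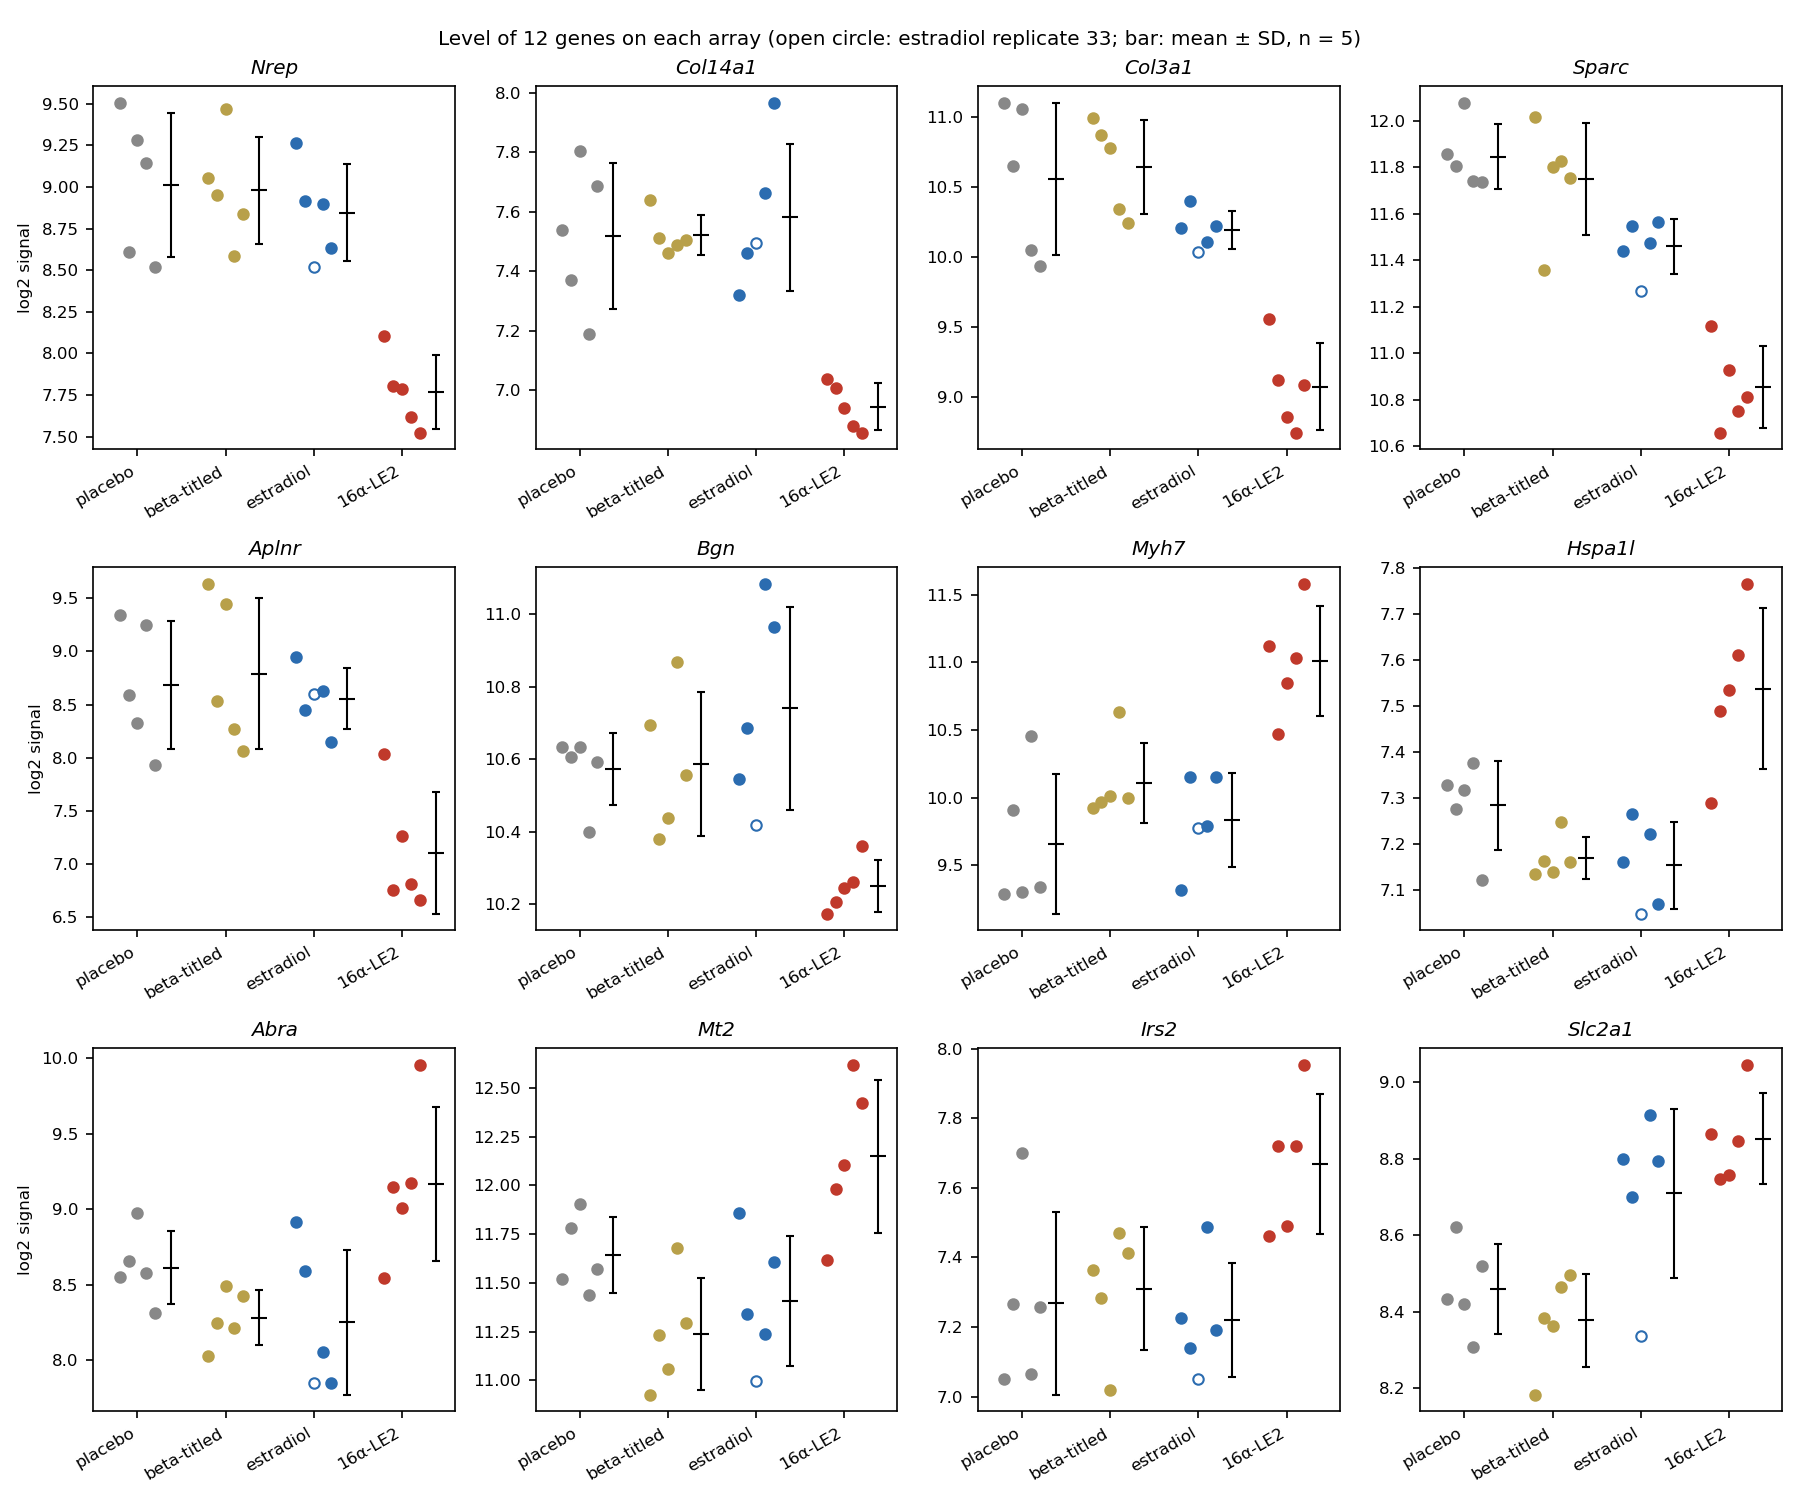
Log2 signal of 12 genes (vertical axis of each panel) on every array of the 4 groups (horizontal axis), with the group mean ± SD beside the points and estradiol replicate 33 as an open circle. Nrep, Col14a1, Col3a1, Sparc, Aplnr and Bgn were lower on all 5 arrays with 16α-LE2 than on any with estradiol, Myh7 and Hspa1l higher, and Slc2a1 overlapped.

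Just outside the threshold stood 4 genes with limma adjusted p from 0.0502 to 0.0515. Col3a1, the fibrillar collagen that accompanies type I collagen in the heart, measured 9.55, 9.12, 8.86, 8.75 and 9.09 with 16α-LE2 and 10.21, 10.40, 10.03, 10.11 and 10.22 with estradiol. The highest 16α-LE2 array, at 9.55, lay well below the lowest estradiol array, at 10.03, and the difference was −1.12 ± 0.20 (SE, adjusted p = 0.0502; −1.16 and 0.103 without estradiol replicate 33). Sparc, a collagen-binding matricellular protein, measured 11.12, 10.66, 10.93, 10.75 and 10.81 with 16α-LE2 and 11.44, 11.55, 11.27, 11.47 and 11.57 with estradiol. No values overlapped, at −0.61 ± 0.11 (SE, adjusted p = 0.0507; −0.65 and 0.0586 without estradiol replicate 33). Myh7 went the other way, at 11.12, 10.47, 10.84, 11.03 and 11.58 with 16α-LE2 and 9.32, 10.15, 9.78, 9.79 and 10.15 with estradiol. Each 16α-LE2 array exceeded each estradiol array, and the difference was 1.17 ± 0.22 (SE, adjusted p = 0.0507; 1.16 and 0.15 without estradiol replicate 33). Hspa1l, a member of the HSP70 chaperone family, measured 7.29, 7.49, 7.54, 7.61 and 7.77 with 16α-LE2 and 7.16, 7.27, 7.05, 7.22 and 7.07 with estradiol. Its groups lay close but apart, at 0.38 ± 0.07 (SE, adjusted p = 0.0515; 0.36 and 0.103 without estradiol replicate 33). With a filter at the 75th percentile of expression, 3 of the 4 passed, namely Col3a1, Sparc and Myh7 (limma adjusted p = 0.0306, 0.0313 and 0.0313). Hspa1l and the called gene Col14a1 lay below that filter and were not tested there. Other probe sets gave −0.68 for Col3a1 and −0.56 and −0.04 for Sparc.

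The starts of these 4 genes are shown because they lie next to the called genes in the ranking and go in opposite directions. Each run is 300 bases, 5′ to 3′ on the gene's strand, around an annotated start in RefSeq on GRCm38.p6, and capitals mark GGTCA, the half-site of the estrogen response element, or its complement TGACC. The windows are chr1:45311288-45311587 (plus strand) for Col3a1, chr11:55420031-55420330 (minus strand) for Sparc, chr14:54994577-54994876 (minus strand, the first entry listed for the gene) for Myh7 and chr17:34972453-34972752 (plus strand) for Hspa1l.
Col3a1: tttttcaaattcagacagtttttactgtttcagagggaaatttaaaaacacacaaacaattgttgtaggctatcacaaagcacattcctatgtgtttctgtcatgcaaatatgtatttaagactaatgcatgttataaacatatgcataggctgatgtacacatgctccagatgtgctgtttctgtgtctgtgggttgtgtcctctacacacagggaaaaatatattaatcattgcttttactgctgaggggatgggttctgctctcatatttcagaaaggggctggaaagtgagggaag
Sparc: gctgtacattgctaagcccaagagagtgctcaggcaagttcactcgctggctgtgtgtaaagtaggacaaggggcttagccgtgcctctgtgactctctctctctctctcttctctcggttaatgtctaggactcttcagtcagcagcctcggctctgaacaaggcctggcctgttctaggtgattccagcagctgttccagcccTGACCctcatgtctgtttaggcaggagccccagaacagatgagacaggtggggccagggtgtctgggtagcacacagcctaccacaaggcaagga
Myh7: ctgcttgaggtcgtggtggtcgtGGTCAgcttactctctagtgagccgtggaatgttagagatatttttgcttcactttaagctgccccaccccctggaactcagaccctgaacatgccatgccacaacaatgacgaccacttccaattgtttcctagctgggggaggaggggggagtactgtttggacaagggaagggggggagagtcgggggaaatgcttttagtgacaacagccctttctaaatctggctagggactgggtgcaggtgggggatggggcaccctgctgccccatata
Hspa1l: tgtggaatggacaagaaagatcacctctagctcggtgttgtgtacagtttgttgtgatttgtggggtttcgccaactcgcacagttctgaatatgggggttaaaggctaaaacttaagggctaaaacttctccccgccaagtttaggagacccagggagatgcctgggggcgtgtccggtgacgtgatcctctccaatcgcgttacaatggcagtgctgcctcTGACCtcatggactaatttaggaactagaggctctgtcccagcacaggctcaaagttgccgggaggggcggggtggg
The Col3a1 window held no half-site, and the other windows held 1 each. Over all 32851 RefSeq promoters of this length, 40.5% held GGTCA on either strand and 0.07% the palindrome GGTCANNNTGACC, which contains the half-site. AP-1 sites, TGANTCA on either strand, occurred in 7.81%, and GC boxes, GGGCGG on either strand, in 35.7%. Of the 24 genes with the smallest p, 12 in each direction, 16 had promoters in the table, 17 in all. Of these 17, 7 (41.2%) held the half-site, 2 the AP-1 site, 8 the GC box and 0 the palindrome. Of 104 tested genes in the matrix lists, 68 had 78 promoters, of which 19 (24.4%) held the half-site, 3 (3.85%) the AP-1 site, 48 (61.5%) the GC box and 0 the palindrome. These are matches of letters only.

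Collagens as a class lay lower with 16α-LE2. Of all genes tested 56.3% had a negative difference, and 62.8% without estradiol replicate 33. Counts of negative members, here and below, stand beside these shares. All 6 fibrillar collagens tested had negative differences, with a median of −0.30 (−0.30 without estradiol replicate 33) beside −0.02 over all genes tested, and 4 of the 6 had an unadjusted p under 0.05, against 2.92% of all genes in that direction. Besides Col3a1 these included Col1a2, a chain of type I collagen, at −0.62 ± 0.16 (SE, limma adjusted p = 0.391), and Col5a2, which helps start fibrils, at −0.35 ± 0.12 (adjusted p = 0.699). Col1a1, the other chain of type I collagen, stood at −0.25 ± 0.09 (SE, adjusted p = 0.727); it measured 7.29, 7.12, 6.96, 7.14 and 7.12 with 16α-LE2 and 7.33, 7.33, 7.62, 7.28 and 7.31 with estradiol. Those values meet at 7.29 and 7.28, and the estradiol mean was raised by replicate 33. Of 12 other collagens tested 11 were lower, with a median of −0.34 (−0.36 without estradiol replicate 33), and 7 had an unadjusted p under 0.05. Without that array 10 of the 12 were lower and 6 had such a p. Of the fibrillar collagens 4 of 6 had one without that array, and the share of all genes was then 5.21%. Col15a1, of basement membrane zones, stood at −0.29 ± 0.07, Col6a1, of microfibrils, at −0.54 ± 0.16 and Col8a1, a short-chain collagen of vessels, at −0.43 ± 0.15. No collagen other than Col14a1 passed the adjusted threshold.

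Proteoglycans followed the collagens in direction, with 9 of 10 negative and a median of −0.18, or −0.31 without estradiol replicate 33. Bgn, biglycan, measured 10.17, 10.21, 10.24, 10.26 and 10.36 with 16α-LE2 and 10.54, 10.69, 10.42, 11.08 and 10.96 with estradiol. The nearest values of the groups were 10.36 and 10.42, the latter from replicate 33, and the difference was −0.49 ± 0.12 (SE, limma adjusted p = 0.258; −0.57 and 0.103 without it). Lum, lumican, which spaces collagen fibrils, measured 10.52, 10.47, 10.72, 10.39 and 10.13 against 11.44, 11.12, 10.85, 10.74 and 11.19. Its groups were apart by a narrow margin, at −0.62 ± 0.18 (SE, adjusted p = 0.532). Fmod, fibromodulin, which like lumican binds fibrils, stood at −0.40 ± 0.13 (SE, adjusted p = 0.598). Of 16 glycoproteins and elastic fibre genes 13 were negative, with a median of −0.19 (−0.22 without estradiol replicate 33), among them Fn1, fibronectin, at −0.33 ± 0.11, Mfap4 at −0.35 ± 0.12 and Nid2, a basement membrane linker, at −0.20 ± 0.07. None of these passed.

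Enzymes that fold and crosslink collagen went largely the same way, 12 of 16 negative with a median of −0.14 (−0.19 without estradiol replicate 33). Serpinh1, the collagen chaperone HSP47, stood at −0.40 ± 0.16, Pcolce, which enhances procollagen cleavage, at −0.45 ± 0.15 and Loxl1, a crosslinking oxidase, at −0.40 ± 0.14, with limma adjusted p of 0.875, 0.699 and 0.727. A second probe set of Loxl1 gave −0.12. Kdelr3, a receptor that retains proteins in the endoplasmic reticulum and is not in that list, measured 7.40, 7.33, 7.41, 7.36 and 7.31 against 7.87, 7.74, 7.74, 7.66 and 7.81. Its groups were narrow and did not overlap, with a difference of −0.40 ± 0.09 (SE, adjusted p = 0.209). Serpinf1, the secreted factor PEDF, measured 8.74, 8.73, 8.71, 8.51 and 8.79 against 9.12, 9.09, 9.00, 9.60 and 9.51 and did not overlap either, at −0.57 ± 0.13 (SE, adjusted p = 0.209; −0.63 and 0.103 without estradiol replicate 33). Of matrix proteases and their inhibitors 9 of 12 were negative, with Mmp2, a gelatinase, at −0.41 ± 0.12 (SE, adjusted p = 0.542), while Adamts1, a protease that cleaves proteoglycans, stood at 0.53 ± 0.17 (SE, adjusted p = 0.564).

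The SPARC family and matricellular list split evenly, 7 higher and 7 lower, with a median of 0.00 that became −0.04 without estradiol replicate 33. Beside Sparc, the secreted glycoprotein Fstl1 stood at −0.45 ± 0.13 (SE, limma adjusted p = 0.47) with no overlap, at 9.30 to 9.69 against 9.87 to 10.12, and Smoc2 at −0.40 ± 0.13 (SE, adjusted p = 0.564). Spon1, a secreted adhesion protein, lay on the other side at 0.40 ± 0.11 (SE, adjusted p = 0.52; 0.28 without estradiol replicate 33). A second probe set of Spon1 above the filter gave 0.17. TGF-β ligands and signalling genes, among which Nrep was counted, had 12 of 18 negative with a median of −0.04 (17 of 18 and −0.09 without estradiol replicate 33). Over all genes 56.3% were negative, and 62.8% without estradiol replicate 33. Tgfb1 itself, the ligand best known for driving cardiac matrix production, stood at −0.16 ± 0.10 (SE, adjusted p = 0.875), and at −0.02 without that array.

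**Figure D2:**
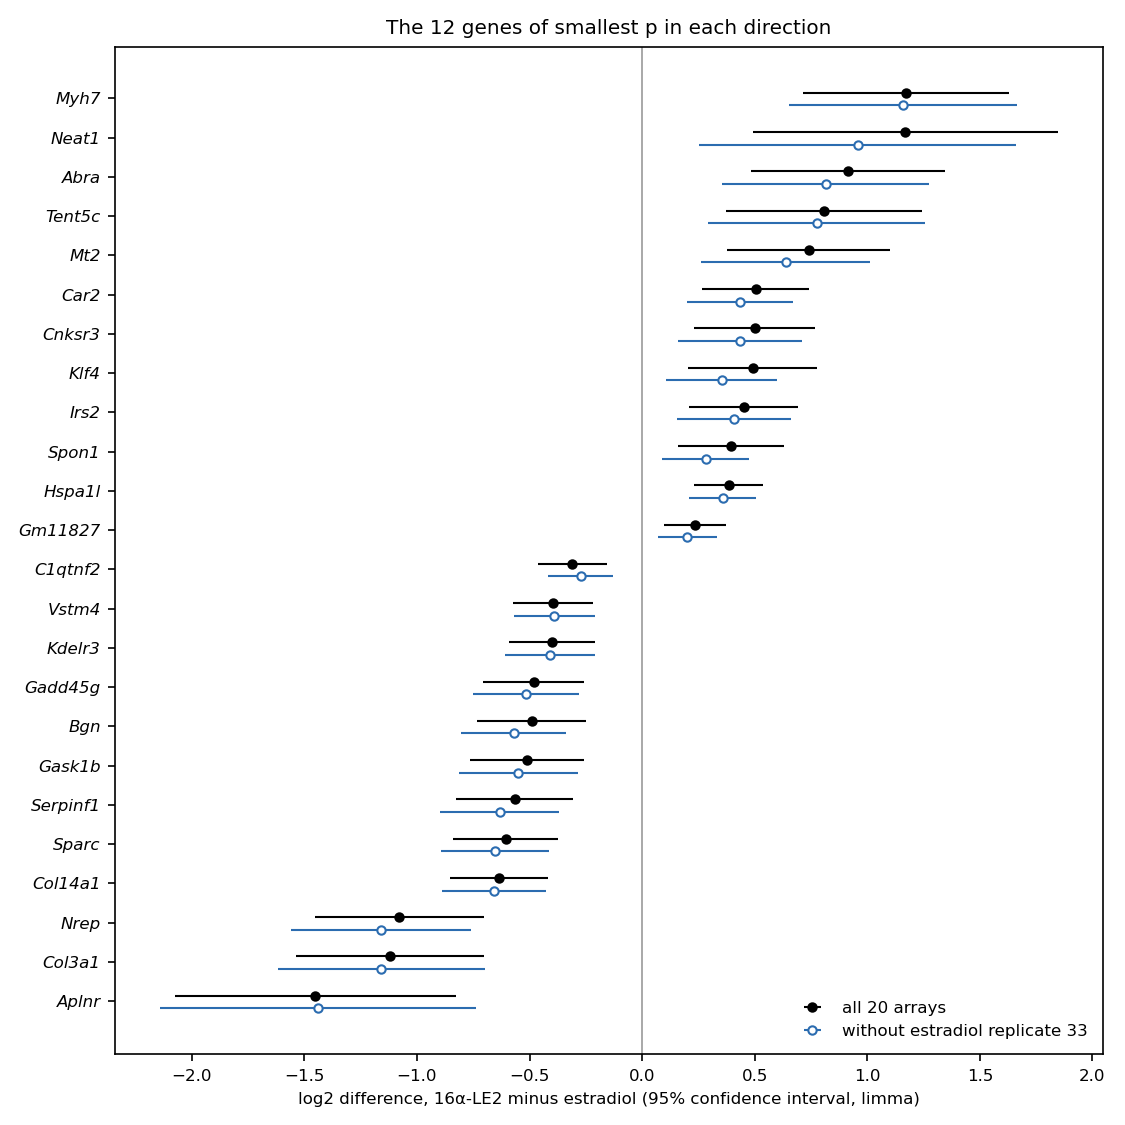
Log2 difference, 16α-LE2 minus estradiol (horizontal axis), with its 95% confidence interval from limma, for the 12 genes of smallest p in each direction (vertical axis), with all 20 arrays (filled) and without estradiol replicate 33 (open). Differences ran from −1.45 for Aplnr to 1.17 for Myh7, and no gene changed its sign without that array.

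Markers of the cells that make matrix were examined beside these genes, and none of the fibroblast or of the smooth muscle and pericyte markers passed the test, with or without estradiol replicate 33. Of 15 fibroblast markers tested 14 had negative differences, with a median of −0.17 (−0.28 without estradiol replicate 33), and their mean level per array was 9.55 to 9.80 with 16α-LE2 and 9.64 to 9.95 with estradiol. Without estradiol replicate 33 the estradiol arrays ran from 9.85 to 9.95, above all 16α-LE2 arrays. Ddr2, a collagen receptor, stood at −0.26 ± 0.08 and Meox1, a transcription factor of activated fibroblasts, at −0.27 ± 0.08, both without overlap (limma adjusted p = 0.564 and 0.47). A further probe set of Ddr2 gave −0.02. Cd34, shared by fibroblasts and endothelium, stood at −0.43 ± 0.15 (SE, adjusted p = 0.727). In bulk tissue fewer cells of a type and less RNA per cell cannot be told apart, and the part of fibroblast number in the matrix differences was not tested. Smooth muscle and pericyte markers had 10 of 12 negative with a median of −0.11, including Acta2, smooth muscle actin, at −0.49 ± 0.17 (−0.32 without estradiol replicate 34) and Pdgfrb at −0.33 ± 0.13. Macrophage markers had 9 of 14 positive with a median of 0.03. Of 4 lymphocyte markers 3 were negative, and their median turned sign after quantile normalization and without estradiol replicate 33.

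Endothelium markers were lower for 14 of 18, with a median of −0.16 (−0.21 without estradiol replicate 33), and averaged 9.23 to 9.60 with 16α-LE2 and 9.38 to 9.75 with estradiol. The other 4 were higher, by up to 0.28. At an unadjusted p under 0.05, 5 of the 18 were lower and 1 was higher, against 2.92% and 2.27% of all genes. Without estradiol replicate 33 these were 6 and 0, against 5.21% and 1.03%. The largest difference of any gene tested was that of Aplnr, the apelin receptor, which is found on endothelial cells. It measured 8.04, 6.75, 7.26, 6.81 and 6.66 with 16α-LE2 and 8.95, 8.45, 8.60, 8.63 and 8.15 with estradiol. The 16α-LE2 arrays stood below the others, replicate 29 by the least, and the difference was −1.45 ± 0.30 (SE, limma adjusted p = 0.13; −1.44 and 0.211 without estradiol replicate 33). A second probe set gave −0.31. Its ligand Apln stood at −0.19 ± 0.07 (SE, adjusted p = 0.807). Among other endothelial genes Tie1 stood at −0.36 ± 0.14 (−0.24 without estradiol replicate 34), Cdh5, the endothelial cadherin, at −0.29 ± 0.12 and Emcn at −0.25 ± 0.10, with adjusted p of 0.875 each. In the list of angiogenic ligands and receptors 9 of 16 were negative, with a median of −0.09 and with Vegfc at −0.23 ± 0.08 and Vegfa at 0.24 ± 0.11, both growth factors for vessels. Neither passed (adjusted p = 0.699 and 0.875).

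Red blood cell markers were higher with 16α-LE2 for 4 of 5, with a median of 0.37 (0.39 without estradiol replicate 33), and 4 had an unadjusted p under 0.05, against 2.27% of all genes in that direction. The remaining member, the hemoglobin gene Hba-a1, stood at −0.03. Without estradiol replicate 33 all 5 were higher, and 3 had such a p, against 1.03% of all genes. Alas2, the first enzyme of heme synthesis in erythroid cells, measured 9.49, 9.47, 10.09, 11.46 and 9.56 with 16α-LE2 and 9.11, 9.24, 9.33, 9.40 and 9.13 with estradiol. The groups did not overlap, and replicate 33 of 16α-LE2 was far above the others of its group. The difference was 0.77 ± 0.27 (SE, limma adjusted p = 0.746) and fell to 0.41 without that array. Bpgm, which makes the red cell regulator of oxygen affinity, measured 9.20, 9.25, 9.50, 10.45 and 9.50 against 9.06, 9.14, 9.18, 9.09 and 9.04, with 16α-LE2 replicate 33 again on top (0.48 ± 0.17 SE, adjusted p = 0.76; 0.26 without it). Car2, a carbonic anhydrase that red cells carry in abundance, was highest on the same array (8.36, 8.35, 8.41, 9.06 and 8.50 against 8.18, 8.21, 7.76, 8.04 and 7.99; 0.50 ± 0.11 SE, adjusted p = 0.209), as was Tent5c, a poly(A) polymerase expressed in erythroid cells (0.81 ± 0.21 SE, adjusted p = 0.414). The mean level of the marker list was 9.29 on that array and 8.29 to 8.57 on the other 16α-LE2 arrays, with 8.12 to 8.36 on estradiol arrays. The part of blood content in these differences was not tested.

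Genes of the cardiomyocyte mostly had small differences beside that of Myh7. Of 23 sarcomere genes tested 10 were higher and 13 lower, with a median of −0.02 (0.01 without estradiol replicate 33), and none passed. Actc1, cardiac actin, measured 14.23, 14.19, 14.19, 14.05 and 14.12 against 14.25, 14.33, 14.62, 14.30 and 14.23. The estradiol values were higher by little, with replicate 33 far above, and the difference went from −0.19 ± 0.08 (SE) to −0.12 without it (limma adjusted p = 0.875 and 0.819). Acta1, skeletal actin, which often accompanies Myh7 under load, stood at −0.35 ± 0.24 (SE, adjusted p = 0.875). Of the natriuretic peptides and load response genes 10 of 16 were positive with a median of 0.07. Nppa stood at 0.31 ± 0.19 (0.19 without estradiol replicate 33) and Nppb at 0.44 ± 0.17, both peptides of wall stress, and Corin, the protease that activates them, at 0.33 ± 0.12, with adjusted p of 0.875, 0.875 and 0.727. Abra, an actin-binding activator of serum response factor signalling in striated muscle, measured 8.55, 9.15, 9.01, 9.17 and 9.96 with 16α-LE2 and 8.91, 8.59, 7.85, 8.05 and 7.85 with estradiol. The groups overlapped through 16α-LE2 replicate 29, and the difference was 0.92 ± 0.21 (SE, adjusted p = 0.209; 0.82 without estradiol replicate 33).

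None of the ion handling genes passed. Potassium channel genes were negative for 12 of 14 with a median of −0.07, and for 14 of 14 with a median of −0.11 without estradiol replicate 33, beside 56.3% of all genes with all arrays and 62.8% without that array. Kcnh2, of the rapid delayed rectifier, stood at −0.28 ± 0.17, and Kcne1, a subunit of the slow one, at −0.26 ± 0.10 (SE, limma adjusted p = 0.875 for both; Kcne1 −0.16 without estradiol replicate 34). Calcium handling genes had 12 of 16 negative with a median of −0.04, and 11 of 16 with −0.03 without estradiol replicate 33, close to the −0.02 and −0.03 of all genes tested. Casq1, the calcium-storing calsequestrin of fast skeletal muscle, measured 7.81, 7.68, 7.91, 7.47 and 7.87 against 7.99, 7.89, 8.13, 8.53 and 8.15, and the groups met at 7.91 and 7.89 (−0.39 ± 0.10 SE, adjusted p = 0.414). Dysf, dysferlin, which repairs muscle membranes, stood at −0.42 ± 0.11 (SE, adjusted p = 0.414; −0.49 and 0.195 without estradiol replicate 33).

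For glucose uptake, the series' theme, no gene separated the agents at the threshold. Slc2a1, the transporter GLUT1, measured 8.86, 8.75, 8.76, 8.85 and 9.05 with 16α-LE2 and 8.80, 8.70, 8.34, 8.91 and 8.79 with estradiol. The groups overlapped, and the difference of 0.14 had a 95% confidence interval of −0.06 to 0.35 that became a difference of 0.05 without estradiol replicate 33, the lowest of the 10 arrays. Slc2a4, the insulin-responsive transporter GLUT4, had a difference of −0.04 with an interval of −0.25 to 0.18, and its sign turned without estradiol replicate 34 (0.05). Pdk4, which restrains glucose oxidation, measured 13.46, 13.76, 13.51, 13.23 and 13.53 with 16α-LE2. With estradiol it parted into 13.92 and 13.85 in replicates 29 and 30 and 12.98, 12.58 and 12.58 in the others, so the 16α-LE2 values lay between, and the difference was 0.32 with an interval of −0.10 to 0.74 (limma adjusted p = 0.875). That difference rested on single estradiol arrays, at 0.50 and 0.48 without replicate 29 or 30 and 0.17 without replicate 34 or 35. These intervals hold differences of either sign, and like action was not shown. Irs2, an insulin receptor substrate, measured 7.46, 7.72, 7.49, 7.72 and 7.95 against 7.23, 7.14, 7.05, 7.49 and 7.19 and overlapped only through estradiol replicate 34 (0.45 ± 0.12 SE, adjusted p = 0.414). Of the 24 glucose transporter and insulin signalling genes 14 were positive with a median of 0.03.

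Other energy genes differed little in size. Glycolysis genes had 13 of 16 negative with a median of −0.06, citric acid cycle and pyruvate dehydrogenase genes 17 of 25 with a median of −0.05, and respiratory chain genes 27 of 37 with a median of −0.02. Over all genes 56.3% were negative, with a median of −0.02. Single respiratory chain genes ran from −0.09 to 0.09 and ATP synthase genes from −0.09 to 0.07, less than the 0.209 that a typical interval reached to either side. Fatty acid uptake and oxidation genes had 15 of 26 positive with a median of 0.04, which was −0.01 without estradiol replicate 33. There Acot1, a thioesterase that PPARα induces, stood at 0.39 ± 0.19 (SE, limma adjusted p = 0.875). Ppargc1a, the coactivator of mitochondrial genes, stood at 0.28 ± 0.12 and Nrf1, which it works with, at 0.12 ± 0.05 (SE, adjusted p = 0.875 for both).

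**Figure D3:**
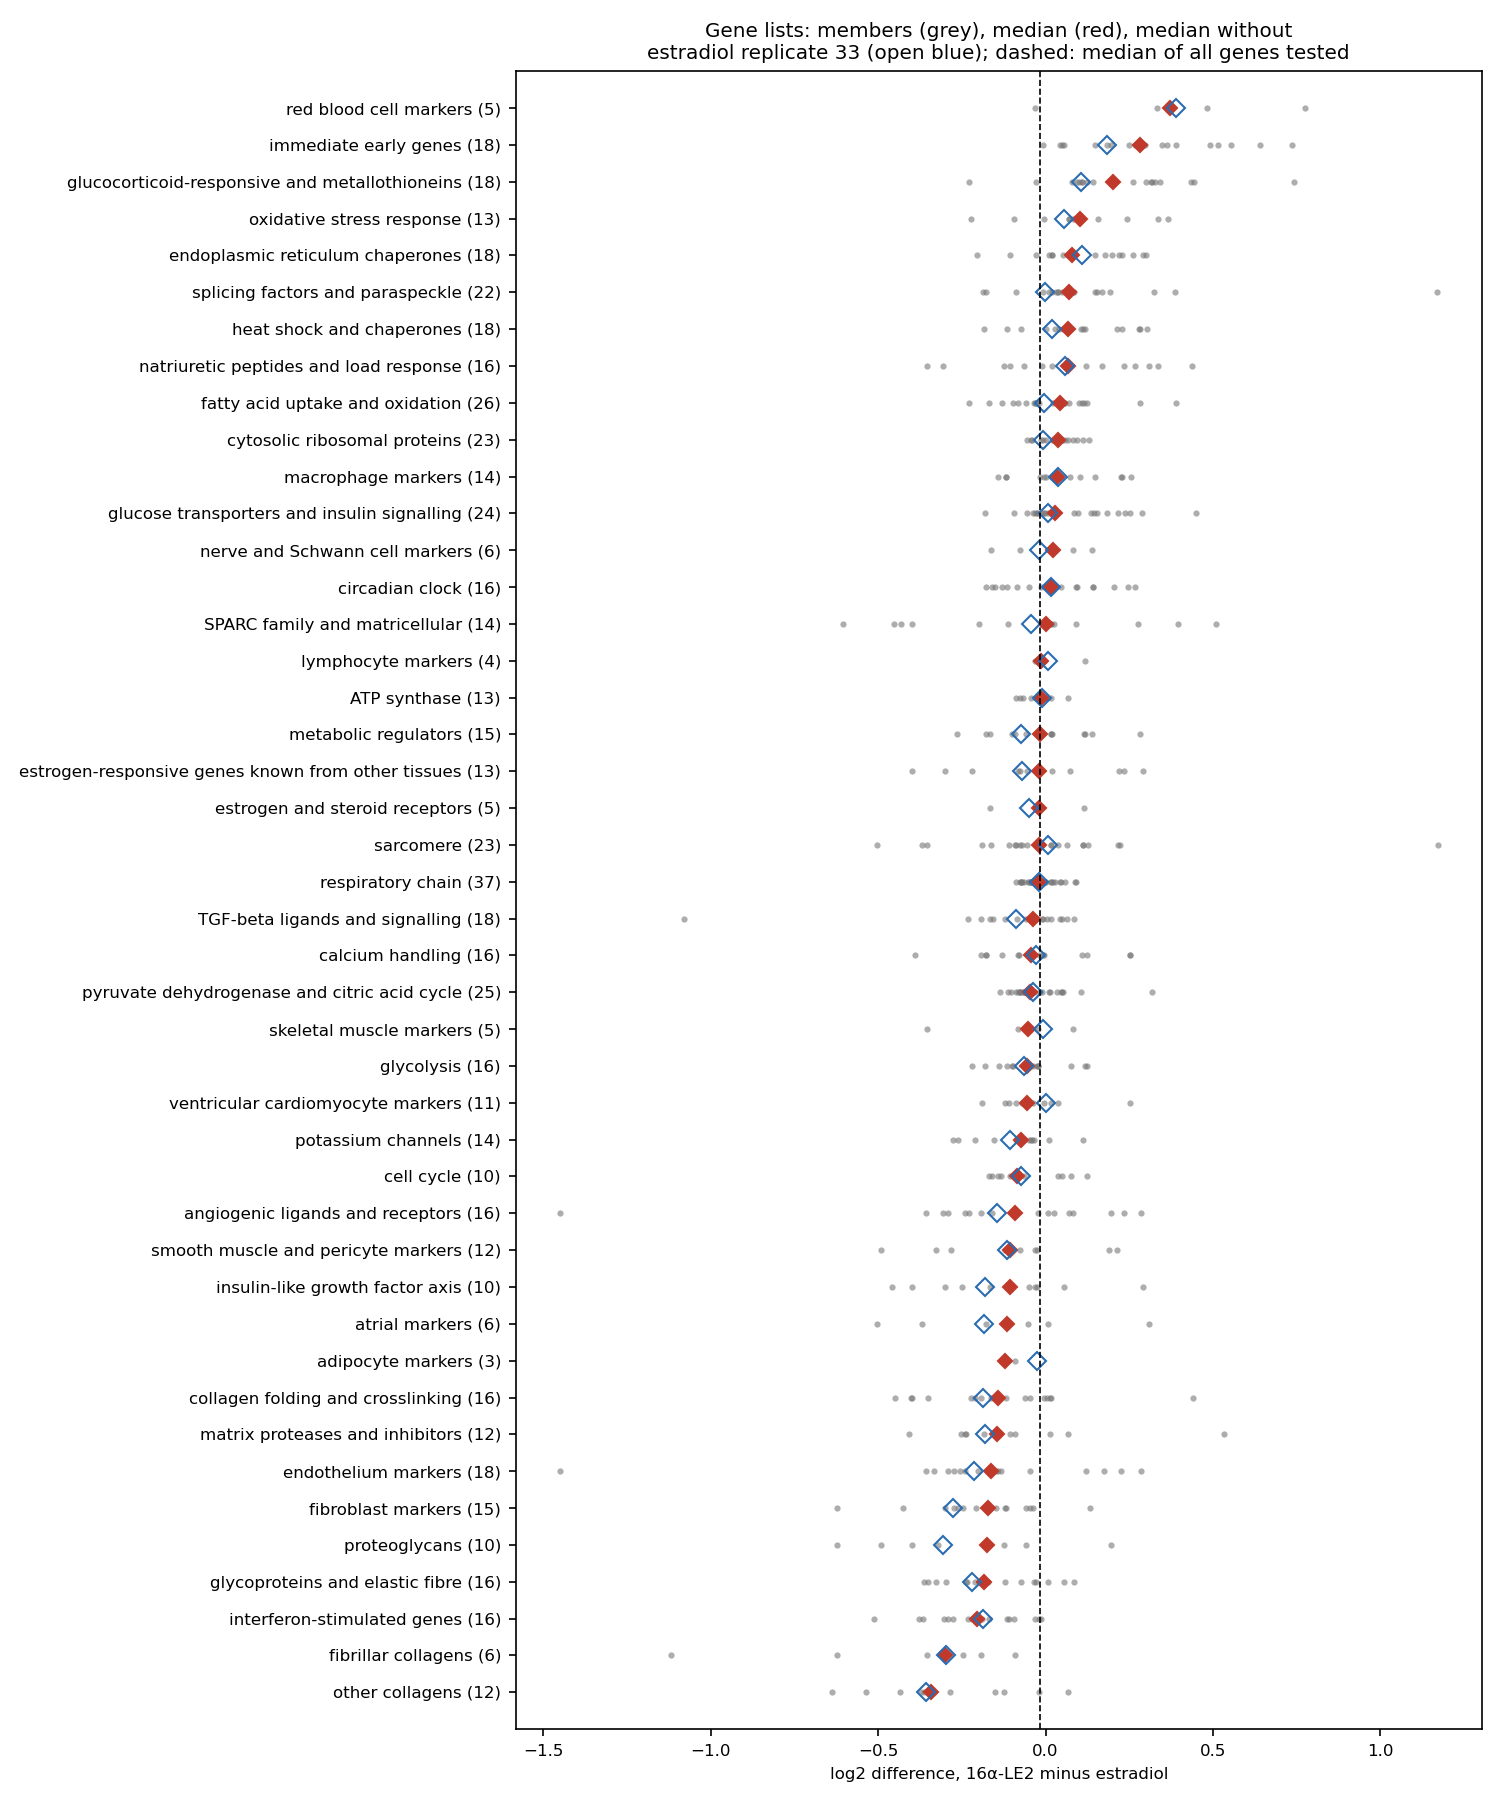
Log2 difference, 16α-LE2 minus estradiol (horizontal axis), of the tested members of 44 gene lists (grey points; vertical axis, number of members in brackets), with list medians for all arrays (red) and without estradiol replicate 33 (open blue) and the median of all genes tested (dashed, −0.02). The lowest medians were those of other collagens, fibrillar collagens and interferon-stimulated genes, −0.34, −0.30 and −0.21, and the highest those of red blood cell markers and immediate early genes, 0.37 and 0.28.

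Immediate early genes, which cells switch on within minutes of a stimulus, were higher with 16α-LE2 for 17 of 18, with a median of 0.28, and 7 had an unadjusted p under 0.05, against 2.27% of all genes in that direction. Without estradiol replicate 33 it was 15 of 18 with a median of 0.18, and 3 had such a p, against 1.03% of all genes. Fos, a subunit of AP-1, measured 7.14, 7.23, 7.41, 7.16 and 7.66 with 16α-LE2 and 7.16, 6.80, 6.54, 6.76 and 6.77 with estradiol. The estradiol values other than that of replicate 29 lay below the filter level of 6.93. Signal at this level is not separated from background here. Only estradiol replicate 29 reached into the 16α-LE2 values, and the difference was 0.52 ± 0.17 (SE, limma adjusted p = 0.699; 0.45 and 0.718 without estradiol replicate 33). Klf4, a zinc finger factor, stood at 0.49 ± 0.14 (adjusted p = 0.487), Atf3, a stress-induced factor, at 0.74 ± 0.29 and Fosl2, another AP-1 subunit, at 0.55 ± 0.22 (SE, adjusted p = 0.875 for both). The list averaged 8.73 to 9.07 with 16α-LE2, 8.57 to 8.73 on 4 estradiol arrays and 8.26 on estradiol replicate 33, and 8.62 to 9.31 with placebo.

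Glucocorticoid-responsive genes and metallothioneins had 16 of 18 positive with a median of 0.20 (13 of 18 and 0.11 without estradiol replicate 33). Mt2, a metallothionein that binds zinc, measured 11.61, 11.98, 12.11, 12.62 and 12.42 against 11.86, 11.34, 11.00, 11.24 and 11.61. The groups overlapped through 16α-LE2 replicate 29 and estradiol replicate 29, at 0.74 ± 0.18 (SE, limma adjusted p = 0.258; 0.64 and 0.326 without estradiol replicate 33). Its partner Mt1 stood at 0.44 ± 0.13, and Fkbp5, a cochaperone of the glucocorticoid receptor, at 0.44 ± 0.21 (SE, adjusted p = 0.542 and 0.875). A second probe set of Mt1 gave 0.14. Heat shock genes and chaperones were positive for 15 of 18 with a median of 0.07, and 11 of 18 with 0.02 without that array, while endoplasmic reticulum chaperones were positive for 15 of 18 with a median of 0.08 (0.11). Oxidative stress genes were positive for 10 of 13 with a median of 0.10. Neat1, the long RNA on which paraspeckles form, measured 12.64, 11.50, 12.16, 11.96 and 11.97 against 11.48, 11.84, 10.03, 10.63 and 10.41, with a wide spread with estradiol (1.17 ± 0.33 SE, adjusted p = 0.473), and its second probe set gave −0.13. Sfpq, a paraspeckle protein, stood at 0.39 ± 0.14 (SE, adjusted p = 0.768), in a list of splicing factors with 18 of 22 positive and a median of 0.07 that was 0.00 without that array. Other probe sets of Sfpq gave 0.34, 0.31, 0.18, 0.07 and −0.05.

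Interferon-stimulated genes were lower with 16α-LE2 for 16 of 16, with a median of −0.21, and for 15 of 16 with a median of −0.19 without estradiol replicate 33. In 4 of the 16 the groups did not overlap, against 0.588% of all genes in that direction. An unadjusted p under 0.05 was found for 1, against 2.92% of all genes. Without estradiol replicate 33 the groups were apart in 5 of the 16, against 2.16% of all genes, and 1 had such a p, against 5.21%. Rtp4, an interferon-induced chaperone of receptors, measured 8.39, 8.09, 8.33, 8.18 and 8.30 with 16α-LE2 and 8.96, 8.93, 8.92, 8.42 and 8.63 with estradiol. All 16α-LE2 values lay below 8.42, the lowest estradiol value, and the difference was −0.51 ± 0.17 (SE, limma adjusted p = 0.716). Ifit3 stood at −0.38 ± 0.24 and Oasl2 at −0.30 ± 0.16, antiviral effectors both, with adjusted p of 0.875. The list averaged 7.90 to 8.08 with 16α-LE2, 8.04 to 8.35 with estradiol and 7.98 to 9.29 with placebo, so the agents' arrays overlapped slightly in it.

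Hormone receptors differed little. Esr1, which encodes the α receptor, lay below the expression filter with a mean of 6.89 over all arrays, and was not tested. It measured 6.87, 6.84, 6.79, 6.65 and 6.72 with 16α-LE2 and 6.86, 6.87, 6.88, 6.89 and 6.93 with estradiol, levels that overlap and that are not separated from background here. Of 5 estrogen and steroid receptor genes tested 4 were negative, with a median of −0.02 that turned positive after quantile normalization, and Esrra, an orphan relative, stood at 0.11 ± 0.10 (SE, limma adjusted p = 0.875). Of 13 genes known to respond to estrogen in other tissues 5 were higher and 8 lower with a median of −0.02. In the insulin-like growth factor axis 8 of 10 were negative with a median of −0.11. Igf1, the growth factor, measured 8.29, 8.23, 8.25, 8.16 and 8.00 against 8.84, 8.70, 8.48, 8.45 and 8.44 with no overlap (−0.40 ± 0.13 SE, adjusted p = 0.699), and Igfbp7, a binding protein rich in vessels, stood at −0.46 ± 0.14 (SE, adjusted p = 0.553; −0.56 and 0.211 without estradiol replicate 33). Other probe sets of Igfbp7 gave 0.16 and −0.14, the latter below the filter. Ptgds, a prostaglandin D synthase, had a difference of −0.02 with an interval of −0.28 to 0.25.

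**Figure D4:**
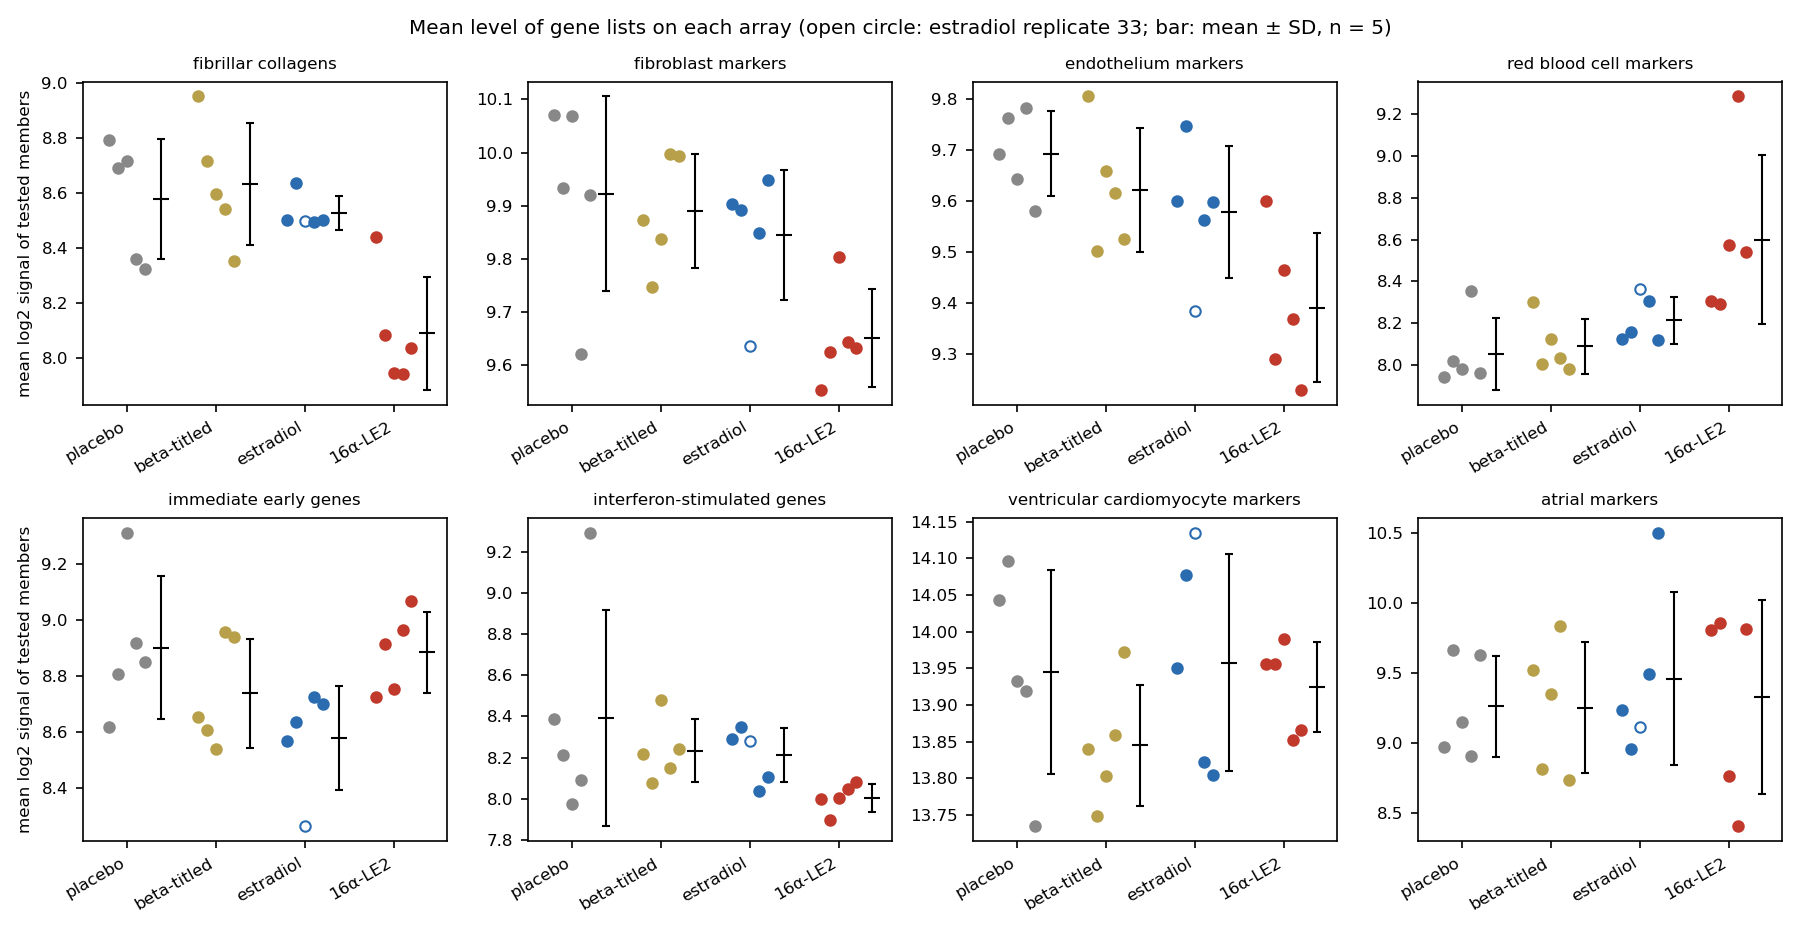
Mean log2 signal of the tested members of 8 gene lists (vertical axis of each panel) on every array of the 4 groups (horizontal axis), with the group mean ± SD beside the points and estradiol replicate 33 as an open circle. Fibrillar collagens ran from 7.94 to 8.44 with 16α-LE2 and from 8.50 to 8.64 with estradiol without overlap, while ventricular cardiomyocyte and atrial markers overlapped.

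Across all genes, 274 (2.27%) were higher and 353 (2.92%) lower with 16α-LE2 at an unadjusted p under 0.05, and without estradiol replicate 33 the counts were 124 (1.03%) and 630 (5.21%). The balance also depended on the scaling of the arrays, since 485 were higher and 325 lower after quantile normalization. The groups did not overlap for 20 genes (0.166%) in the higher and 71 (0.588%) in the lower direction, and for 48 (0.397%) and 261 (2.16%) without that array; after quantile normalization with all arrays they were 40 and 73. The lower side without estradiol replicate 33 brought in Tmem86a, a lysoplasmalogenase (−0.55 ± 0.11 SE, limma adjusted p = 0.103), Fndc1 (−0.40) and Dapk2, a death-associated kinase (−0.22). The higher side brought in Slc4a1, the band 3 protein of erythrocytes (0.39), Gm10638 (0.22) and Ptcra (0.18), none of which passed. With all arrays Slc4a1 stood at 0.33, and its other probe sets gave −0.09 and 0.67, the last below the filter. On the full set Vstm4 (−0.40 ± 0.09 SE), C1qtnf2 (−0.31 ± 0.07), Gadd45g, a stress sensor (−0.48 ± 0.11), Gask1b (−0.51 ± 0.12), Cnksr3 (0.50 ± 0.13) and Gm11827 (0.24 ± 0.07) completed the 12 genes of smallest p in each direction, with adjusted p from 0.185 to 0.487.

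The placebo arrays give the side from which these differences come, as a description, since both agents' differences from placebo share those arrays. Of the 12 lower genes of smallest p, the placebo mean was nearer to estradiol than to 16α-LE2 for 12, and of the 12 higher genes for 11. The beta-titled mean was nearer to estradiol for 10 and 11. The genes were chosen on these arrays, so the counts are no test. Myh7 averaged 9.66 ± 0.51 (SD, n = 5) with placebo, 9.84 ± 0.35 with estradiol and 11.01 ± 0.40 with 16α-LE2, and Aplnr 8.69 ± 0.60, 8.55 ± 0.29 and 7.10 ± 0.57. Sparc ran in steps, 11.84 ± 0.14, 11.46 ± 0.12 and 10.85 ± 0.18, and so did Col3a1, 10.56 ± 0.55, 10.19 ± 0.14 and 9.07 ± 0.31. Klf4 was the exception among the 24, with differences from placebo of −0.66 with estradiol and −0.17 with 16α-LE2. Slc2a1 averaged 8.46 ± 0.12 with placebo, 8.71 ± 0.22 with estradiol and 8.85 ± 0.12 with 16α-LE2.

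Measures of RNA and array quality were set beside these results. The signal difference between 3′ and 5′ control probe sets was −0.09 to 0.24 for actin and −0.12 to 0.12 for GAPDH with 16α-LE2, and −0.03 to 0.22 and −0.01 to 0.17 with estradiol. A probe set for ribosomal RNA ran from 9.70 to 12.6 with 16α-LE2, with replicate 34 highest, and from 9.47 to 10.6 with estradiol. The part of these measures in the results was not tested.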

How the data were processed

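Total RNA of 20 ventricle samples was labelled from 100 ng each and measured on Affymetrix mouse arrays, per the labels. The deposited values are 1 number for each of 45101 probe sets and array. The authors deposited them as log2 signal, a scale read from the values, with a step of summarizing and scaling the probes whose method is not stated in the labels or file headers. Genes were named from the platform annotation for the 34945 probe sets with exactly 1 symbol (932 had several and 9160 none, and 64 control probe sets were left out). Each gene took the probe set of highest mean over all arrays, and was tested where that mean exceeded 6.93, the median over probe sets. All 20 arrays were fitted with limma 3.58.1 in R 4.3.3 (group means, contrast 16α-LE2 minus estradiol, eBayes with an intensity trend), with Benjamini-Hochberg adjustment over 12082 genes and a threshold of 0.05. The fit was tested on simulated data with independent normal noise, of equal spread on all arrays for a given gene. No simulated array stood apart as estradiol replicate 33 does, so the test does not cover that feature of the data.

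The genes compared and the 45 gene lists (678 of 731 symbols matched) were chosen with earlier results of these data known. The text names every called gene, the 12 genes of smallest p in each direction with all arrays and without estradiol replicate 33, up to 4 members of smallest p from each list, and 12 genes fixed by name (Slc2a1, Slc2a4, Pdk4, Esr1, Myh7, Nppa, Col1a1, Col3a1, Sparc, Nrep, Fos and Ptgds). Lists are described by counts and medians, without a set test. Alternatives changed the expression filter, how probe sets of a gene were combined, the array scaling, array weights, the variance model, the arrays fitted, the replicate number as a block, the threshold, and each array left out in turn. Promoters came from RefSeq on GRCm38.p6. Figures were drawn with matplotlib 3.10.9.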

Additional observations from a re-analysis of the deposited data

Results flagged for a closer look

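Within each group of 5 arrays, 122 values were checked for a single array set apart from its neighbours by more than 0.71 of the group's range (Dixon's test), and 23 of 244 groups were. Chance alone sets apart about 1 in 20 groups. The cause was not tested for any of them.

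In 8 of the 23 cases the array was estradiol replicate 33. It was high for Actc1 (14.62, the next 14.33), Col1a1 (7.62, the next 7.33) and Gm10638 (7.30, the next 6.97). It was low for Gm11827 (6.90, the next 7.06), Spon1 (8.37, the next 8.88) and the mean levels of proteoglycans (9.48, the next 9.67), nerve and Schwann cell markers (7.54, the next 7.74) and estrogen and steroid receptors (8.64, the next 8.83). Other estradiol arrays set apart were replicate 34, low for Emcn (9.56), and replicate 30, high for Sfpq (8.71) and for the mean of fibrillar collagens (8.64, the other 4 between 8.50 and 8.50). Replicate 35 was high for the mean of macrophage markers (9.32, the next 9.02).

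With 16α-LE2, replicate 33 was high for Bpgm (10.45, the next 9.50), Car2 (9.06, the next 8.50) and the mean of red blood cell markers (9.29, the next 8.57), all of them genes of red blood cells. It was also high for the mean of cell cycle genes (8.51, the next 8.48) and low for Serpinf1 (8.51, the next 8.71). Replicate 29 was high for the mean of fibrillar collagens (8.44, the next 8.08), Col15a1 (7.01, the next 6.80) and Cdh5 (9.87, the next 9.50), and low for Adamts1 (8.46, the next 8.87) and Kcne1 (6.94, the next 7.08). Its collagen level lay nearest to the estradiol arrays, and the count of called genes was 11 without it. Replicate 32 was high for Gask1b (8.95, the next 8.57).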

How the results depend on the processing

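With all arrays 2 genes were called, 0 higher and 2 lower. The counts of all, higher and lower calls were 4, 1 and 3 without the expression filter, 4, 1 and 3 with a filter at the 75th percentile, 0, 0 and 0 when probe sets of a gene were averaged, 20, 1 and 19 with array weights, 5, 1 and 4 with robust eBayes, 6, 0 and 6 in a fit of the 9 arrays compared without estradiol replicate 33, and 6, 2 and 4 at an adjusted p under 0.10. Leaving out each array in turn gave 0 to 11 calls, 0 to 3 higher and 0 to 8 lower. The filter settings also change the number of genes tested, and the cause of these changes in count was not tested. Without estradiol replicate 33 the count of 2 became 0 with averaged probe sets, quantile normalization, no intensity trend or robust eBayes, 10 with array weights and 6 with only the compared arrays, and ran from 0 to 13 over the arrays left out.

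Deviations of equally numbered arrays from their group means correlated at −0.242, −0.0409, −0.0589 and −0.0201. The estradiol means included replicate 33, which acts on every deviation in that group. Whether the numbers pair the samples is therefore not settled. With the replicate number as a block 4 genes were called, 1 higher (Myh7) and 3 lower (Aplnr, Col3a1 and Nrep), and also 4, 1 and 3 without estradiol replicate 33. In that block fit Ptgds turned to 0.0307, and 0.0410 without the array. Leaving out each array in turn moved Ptgds between −0.0540 and 0.0200 and Slc2a4 between −0.0908 and 0.0504.

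The 91 genes whose groups did not overlap were 309 without estradiol replicate 33. Of 1408 list medians under alternatives 10 moved by more than the spread between samples, and 6 of 2550 values of named genes reversed, 64 newly passed and 21 no longer passed. No background measure was used, so low signals may be background.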

Other observations

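Cyp1a1, a monooxygenase that is a standard target of the aryl hydrocarbon receptor and that hydroxylates estrogens, lay below the expression filter and was singled out after its values were seen. It measured 6.64, 6.98, 6.75, 6.93 and 6.96 in 16α-LE2 replicates 29, 30, 32, 33 and 34, and 6.33, 6.23, 5.96, 6.37 and 6.53 in estradiol replicates 29, 30, 33, 34 and 35. The groups did not overlap. Placebo averaged 6.13 and the beta-titled group 6.24, so the 16α-LE2 arrays were the highest. Without the expression filter the difference between the agents was 0.57 (limma adjusted p = 0.00306), and 0.49 without estradiol replicate 33 (limma adjusted p = 0.00330). Signal at this level is not separated from background here.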
